A study of Homo sapiens with 18 samples.

Results

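Matrix metalloproteinases (MMPs) and the tissue inhibitors of metalloproteinases (TIMPs) were followed across the 6 conditions of an RNA-seq series in MDA-MB-231, a triple negative breast cancer cell line. The members were the 10 rows of the count matrix, of 57448 in all, whose Ensembl identifiers map to MMP1, MMP2, MMP3, MMP9, MMP13, MMP14, MMP16, TIMP1, TIMP2 and TIMP3. The conditions were untreated parental cells (WT), 2 lines with GPS2 knocked out (KO1 and KO2), cells expressing myristoylated AKT1 (myrAKT), and KO1 and KO2 cells exposed to the AKT inhibitor MK2206 at 10 µM for 4 h (KO1+MK and KO2+MK). Each condition was sequenced as 3 replicates, and neither WT nor myrAKT cells were sequenced after MK2206. The knockout lines are heterogeneous puromycin-selected pools, made with Cas9 and different sgRNA sets against exons of GPS2, and the myrAKT line carries a retroviral FLAG-tagged AKT1 with a membrane anchor. Nothing in the labels says that replicates came from separate cultures, so p-values measure the spread between these libraries, which may be technical.

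MMPs are zinc-dependent proteases that are made as inactive proenzymes and cut collagens and other matrix proteins. Most are secreted, while the membrane-type MMPs stay anchored at the cell surface and can activate other MMPs. TIMPs bind the active site of MMPs and block them, and the balance of both families is studied for its part in matrix remodelling and tumor cell invasion. Messenger RNA does not show how much of a protease is active.

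The libraries held 23419198 to 39319910 counted reads. GPS2 RNA was not lower in the libraries labelled knockout (4.53 CPM in KO1 and 6.07 CPM in KO2 against 4.59 CPM in WT), and gene counts do not show whether its sequence was edited. The study reported that western blot and genomic PCR showed the loss of GPS2 in the knockout lines. AKT1 was at 226 CPM in myrAKT and 136 CPM in WT. All 7 marker genes chosen as present in MDA-MB-231 cells (such as VIM and CD44) passed the filter on low counts, and of 7 chosen as low or absent 5 passed as well, with WT means of 92.0 CPM for ERBB2, 12.1 for EPCAM, 7.21 for FOXA1, 3.33 for GATA3 and 0.964 for ESR1, while PGR and CDH1 did not pass. Of 10 markers of other cell types 4 passed, and their summed level ran from 26.8 to 31.0 CPM in WT, 17.3 to 18.2 in KO1, 20.7 to 22.1 in KO2 and 34.4 to 36.3 in myrAKT. The part of these differences in the results below was not tested.

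Counts were scaled by edgeR's TMM method, and levels are given on that scale as CPM, counts brought to a common library size. A gene was tested if it had at least 1 CPM in at least 3 libraries, and called if edgeR's quasi-likelihood test (two-sided, Benjamini-Hochberg adjusted over all 15587 genes tested) gave an adjusted p not above 0.001 and the groups differed 1.5-fold or more. MMP1, MMP3, MMP14, MMP16, TIMP1, TIMP2 and TIMP3 were tested. MMP2, MMP9 and MMP13 did not pass the filter. In these bulk cultures, fewer cells that express a gene and less RNA per cell cannot be told apart.

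**Figure D1:**
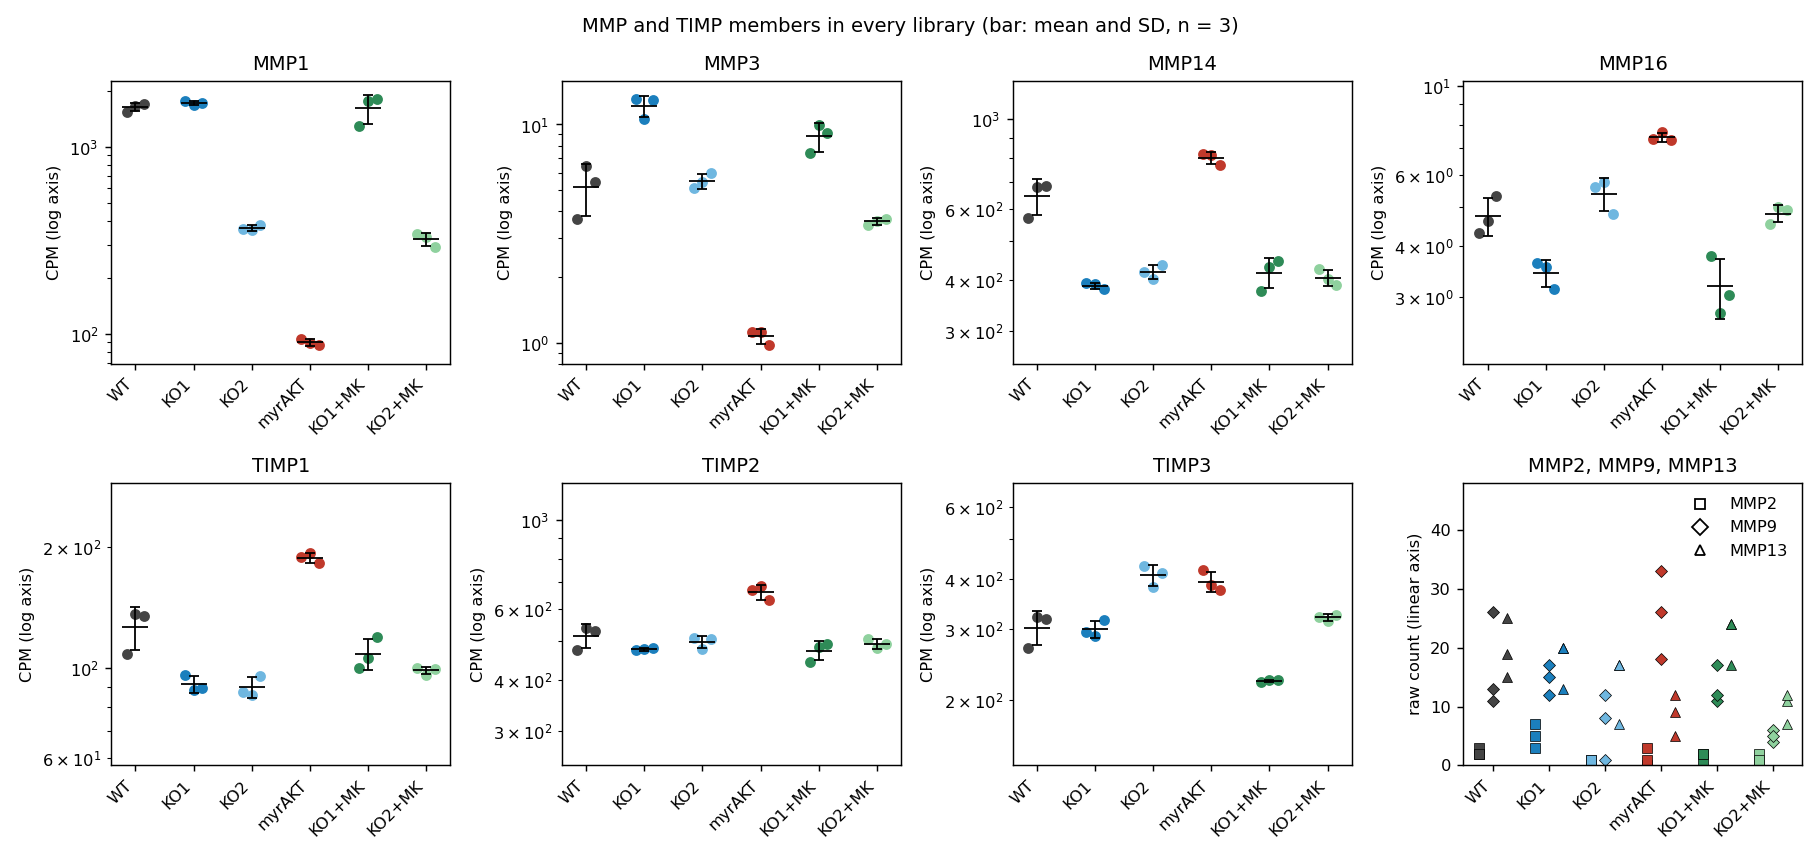
CPM of the 7 tested members in each library on log axes, with the mean and SD of the 3 replicates per group, and raw counts of MMP2, MMP9 and MMP13 on a linear axis from 0. MMP1 averaged 1722 CPM in KO1, 368 CPM in KO2 and 90.2 CPM in myrAKT, MMP14 was below WT in all 12 knockout libraries, and MMP2, MMP9 and MMP13 never exceeded 33 counts.

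The set of RefSeq (GRCh38.p14) sequences before the transcription start used here held those of 3 of the 10 members, MMP14, TIMP1 and TIMP3. They are shown because MMP14 and TIMP1 moved together across the conditions and TIMP3 was the inhibitor with the largest difference under MK2206. MMP10, a neighbour of MMP1 outside the members, is shown because it moved with MMP1. Each is the 250 bases before the RefSeq start, read 5′ to 3′ on the strand of the gene, with motif matches in capitals. The RefSeq and GENCODE starts differ for MMP14 and TIMP1, whose windows run past the GENCODE starts at 22836560 and 47582408.
MMP14, chr14:22836335-22836584, plus strand: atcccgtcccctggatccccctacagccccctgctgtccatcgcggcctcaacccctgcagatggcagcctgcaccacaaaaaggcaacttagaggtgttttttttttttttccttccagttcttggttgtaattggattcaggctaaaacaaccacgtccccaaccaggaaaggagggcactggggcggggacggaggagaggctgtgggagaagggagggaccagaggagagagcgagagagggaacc
TIMP1, chrX:47582186-47582435, plus strand: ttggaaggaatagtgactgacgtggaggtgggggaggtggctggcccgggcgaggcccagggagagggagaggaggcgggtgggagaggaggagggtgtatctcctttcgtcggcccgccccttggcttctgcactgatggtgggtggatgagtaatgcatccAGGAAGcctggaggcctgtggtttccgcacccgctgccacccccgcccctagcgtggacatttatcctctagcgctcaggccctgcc
TIMP3, chr22:32801455-32801704, plus strand: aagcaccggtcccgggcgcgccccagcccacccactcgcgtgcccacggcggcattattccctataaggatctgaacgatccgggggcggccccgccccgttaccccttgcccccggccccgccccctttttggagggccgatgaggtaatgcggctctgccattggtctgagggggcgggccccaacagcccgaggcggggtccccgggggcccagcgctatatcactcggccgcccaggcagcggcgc
MMP10, chr11:102780629-102780878, minus strand: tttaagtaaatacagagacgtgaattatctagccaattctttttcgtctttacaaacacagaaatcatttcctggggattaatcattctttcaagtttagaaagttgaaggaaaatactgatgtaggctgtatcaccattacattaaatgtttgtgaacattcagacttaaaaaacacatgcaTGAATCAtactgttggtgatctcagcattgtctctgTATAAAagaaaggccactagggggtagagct

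The motifs searched on both strands were TGANTCA for AP-1, AGGAAG for ETS factors, GTAAACA for FOXO factors and TATAAA for a TATA box. Among 35116 promoters of the same length, 6.57% held the AP-1 motif, 28.7% the ETS motif, 2.98% the FOXO motif and 10.7% the TATA box. MMP10 held the AP-1 letters from position −67 and the TATA letters from position −31, counted from the start. TIMP1 held the ETS letters from position −87, and no match overlapped another. The letters were not found in the MMP14 and TIMP3 windows. These matches describe the sequence only. The share of G and C was 34.4% for MMP10, 56.8% for MMP14, 64.8% for TIMP1 and 72.4% for TIMP3, beside a median of 58.0% over all promoters.

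MMP1 (ENSG00000196611) encodes interstitial collagenase, which cuts fibrillar collagens. It lies on the minus strand of chromosome 11 at 102789401 to 102798160 (hg38, GENCODE release 44), has 10 exons in its canonical transcript and was the MMP with the highest level per kb of exon in WT. Its CPM was 1544, 1654 and 1697 in the 3 WT libraries, 1766, 1674 and 1727 in KO1, and 362, 361 and 382 in KO2. The KO1 libraries overlapped with WT, and all KO2 libraries were far below both. In myrAKT it was at 94.1, 89.5 and 86.9 CPM, the lowest of the 6 groups. After MK2206 it was at 1286, 1768 and 1793 CPM in KO1+MK and at 342, 328 and 293 CPM in KO2+MK. In the order of the group means, KO1, WT and KO1+MK overlapped, and the groups KO2, KO2+MK and myrAKT each lay apart from the one before.

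MMP1 fell 4.43-fold in KO2 against WT (log2 fold change −2.15, SE 0.0580, adjusted p = 1.4e-16) and 18.1-fold in myrAKT against WT (−4.18, SE 0.0826, adjusted p = 7.24e-24). In KO1 the difference from WT was 0.08 (95% confidence interval −0.03 to 0.19, adjusted p = 0.211). KO2 was tested directly against KO1, and MMP1 was 4.68-fold lower in KO2 (−2.23, SE 0.0454, adjusted p = 3.67e-21). With both pools in 1 group the difference from WT was −0.64 (SE 0.519, adjusted p = 0.307), a mean that describes neither pool. With the pools as separate groups in the fit it was −1.04 (adjusted p = 3.04e-15). MK2206 gave −0.09 in KO1 (adjusted p = 0.442), which became 0.048 without KO1+MK replicate 1, the library that stood apart, and −0.20 in KO2 (adjusted p = 0.00374).

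MMP3 (ENSG00000149968, chromosome 11, 102835801 to 102843609, minus strand) encodes stromelysin-1, which cuts proteoglycans and several matrix proteins and can activate procollagenases. It was expressed far below MMP1, with 36 to 491 counts per library. Its CPM was 3.69, 6.45 and 5.43 in WT, 13.0, 10.6 and 12.9 in KO1, and 5.12, 5.45 and 5.98 in KO2. KO1 lay above all WT and KO2 libraries, which overlapped. The myrAKT libraries were at 1.12, 1.12 and 0.972 CPM. KO1+MK libraries were at 7.39, 9.92 and 9.13 CPM, and KO2+MK libraries at 3.47, 3.60 and 3.70 CPM. Both treated groups lay below the untreated libraries of their own pool.

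MMP3 rose 2.34-fold in KO1 against WT (log2 fold change 1.23, SE 0.129, adjusted p = 3.15e-08), while in KO2 the difference was 0.09 (95% confidence interval −0.21 to 0.39, adjusted p = 0.618). It was 2.21-fold lower in KO2 than in KO1 (−1.14, adjusted p = 9.91e-10) and fell 4.86-fold in myrAKT against WT (−2.28, SE 0.195, adjusted p = 1.52e-10). MK2206 gave −0.46 in KO1 (SE 0.107, adjusted p = 0.00289) and −0.62 in KO2 (SE 0.115, adjusted p = 0.000168). The KO2 value was called at 1.54-fold. That call was lost with DESeq2 (−0.58), with library totals (−0.58), with all 18 libraries in 1 fit, without KO2 replicate 3 (−0.56) and without KO2+MK replicate 2.

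MMP2 and MMP9 encode the gelatinases, which cut denatured collagen and basement membrane collagen, and MMP13 encodes collagenase-3. MMP2 (ENSG00000087245, chromosome 16, 55389700 to 55506691) had 0 to 7 counts per library and 36 in all, and was at 0 in 3 libraries, 1 each of KO2, myrAKT and KO2+MK, where a count of 0 allows up to 3 counts (0.0769 to 0.109 CPM over the libraries of these groups, counting error only). MMP9 (ENSG00000100985, chromosome 20, 46008908 to 46016561) had 1 to 33 counts, with the highest group mean in myrAKT (0.725 ± 0.158 CPM, SD, n = 3) and the lowest in KO2+MK (0.171 ± 0.0400 CPM). MMP13 (ENSG00000137745, chromosome 11, 102942995 to 102955732) had 5 to 25 counts, with the highest group mean in KO1+MK (0.807 ± 0.0931 CPM) and the lowest in myrAKT (0.242 ± 0.0758 CPM). In a fit without the filter, none of the 3 genes was called in any comparison, and 8 of their 33 values had an unadjusted p under 0.05. The lowest adjusted p was that of MMP9 in the knockout pools against myrAKT (log2 fold change −1.29, SE 0.364, adjusted p = 0.00549), followed by MMP9 in KO2 against WT (−1.26, SE 0.405, adjusted p = 0.0078). MMP2 in KO2 against KO1 was at −2.69 (SE 0.958, adjusted p = 0.0407), so at these counts even large differences could go without a call.

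MMP14 (ENSG00000157227, chromosome 14, 22836560 to 22849041, plus strand) encodes MT1-MMP, a membrane-type collagenase that activates pro-MMP2 with the help of TIMP2. Its CPM was 571, 680 and 685 in WT, 393, 390 and 380 in KO1, and 419, 402 and 437 in KO2. Every knockout library lay below every WT library, and the myrAKT libraries at 820, 817 and 772 CPM lay above them all. The treated libraries were at 377, 431 and 445 CPM in KO1+MK and at 426, 402 and 389 CPM in KO2+MK, which overlapped with the untreated knockout libraries and stayed below WT. KO2, KO1+MK, KO2+MK and KO1 were neighbours in the order of the means and overlapped.

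MMP14 fell in both pools, by 0.74 on the log2 scale in KO1 (SE 0.0581, adjusted p = 4.02e-10) and by 0.62 in KO2 (SE 0.0638, adjusted p = 4.76e-08). With both pools as 1 group it was the member called against WT, at −0.68 (SE 0.0623, adjusted p = 2.52e-06), that is 1.60-fold lower, and 1 of 7 tested members called stands beside 12.9% of all tested genes. In treated knockout cells against untreated WT it was also the only member called (−0.65, SE 0.0680, adjusted p = 6.1e-06, beside 15.3% of all tested genes), where treatment and genotype differ together. The fold in KO2 is close to the minimum of 1.5. It went under that minimum without WT replicate 2 (−0.58), without WT replicate 3 (−0.58) and with upper-quartile factors (−0.46), which moved the median of all tested genes from 0.02 to 0.18. In myrAKT the difference from WT was 0.32 (SE 0.0768, adjusted p = 0.00118), and MK2206 gave 0.11 in KO1 (adjusted p = 0.124) and −0.05 in KO2 (adjusted p = 0.428).

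MMP16 (ENSG00000156103, chromosome 8, 88032011 to 88328025, minus strand) encodes MT3-MMP, another membrane-type protease. It had 74 to 294 counts per library. Its CPM was 4.32, 4.63 and 5.32 in WT, 3.63, 3.56 and 3.14 in KO1, and 5.61, 5.76 and 4.82 in KO2. KO1 lay below WT, KO2 overlapped with WT, and the myrAKT libraries at 7.36, 7.68 and 7.32 CPM were the highest. MMP16 rose 1.57-fold in myrAKT (log2 fold change 0.65, SE 0.112, adjusted p = 2.44e-05), but without WT replicate 1 the value was 0.58 and under the minimum fold. It was 1.57-fold higher in KO2 than in KO1 (0.65, SE 0.113, adjusted p = 9.56e-05), a call lost without KO1 replicate 3 (0.59, adjusted p = 0.00136). Against WT it was at −0.47 in KO1 (adjusted p = 0.00191) and 0.18 in KO2 (adjusted p = 0.172). Treated libraries ran from 2.74 to 3.78 CPM in KO1+MK and from 4.55 to 5.00 CPM in KO2+MK, overlapping with their untreated pools, with −0.12 in KO1 (adjusted p = 0.527) and −0.16 in KO2 (adjusted p = 0.239).

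TIMP1 (ENSG00000102265, chromosome X, 47582408 to 47586789, plus strand) encodes a secreted inhibitor of most soluble MMPs. Its CPM was 108, 136 and 134 in WT, 96.4, 88.3 and 89.2 in KO1, and 87.3, 85.9 and 95.8 in KO2. Both pools lay below WT without overlap, and the myrAKT libraries at 189, 192 and 182 CPM lay above it. The treated libraries were at 100.2, 106 and 119 CPM in KO1+MK and at 100.3, 96.3 and 99.6 CPM in KO2+MK. Both lay above the untreated libraries of their own pool, and KO1+MK overlapped with WT. The adjusted p passed but not the minimum fold in KO1 (log2 fold change −0.47, adjusted p = 1.68e-06), in KO2 (−0.49, adjusted p = 3.22e-06) and in myrAKT (0.57, SE 0.0739, adjusted p = 2.86e-07). Without WT replicate 1 the KO2 value was called (−0.59, adjusted p = 1.21e-10). The myrAKT value, 1.49-fold and just under the minimum, was called with library totals (0.65), upper-quartile factors (0.63), DESeq2 size factors (0.59) and DESeq2 (0.60), and without some single libraries. MK2206 gave 0.25 in KO1 (adjusted p = 0.00255) and 0.14 in KO2 (adjusted p = 0.0227).

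TIMP2 (ENSG00000035862, chromosome 17, 78852977 to 78925387, minus strand) encodes an inhibitor that also forms the complex through which MT1-MMP activates pro-MMP2. Its CPM was 475, 540 and 530 in WT, and 631 to 683 in myrAKT, where the log2 fold change was 0.36 (SE 0.0719, adjusted p = 0.000146, under the minimum fold). The 12 knockout libraries ran from 445 to 508 CPM and overlapped with WT, with −0.11 in KO1 (95% confidence interval −0.21 to −0.0024, adjusted p = 0.0694) and −0.05 in KO2 (−0.17 to 0.07, adjusted p = 0.442). MK2206 gave −0.01 in each pool, with intervals from −0.11 to 0.09 in KO1 and from −0.11 to 0.08 in KO2.

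TIMP3 (ENSG00000100234, chromosome 22, 32801705 to 32863041, plus strand) encodes the inhibitor that binds to the extracellular matrix and also blocks several ADAM proteases. Its CPM was 269, 321 and 318 in WT, 296, 288 and 316 in KO1, and 429, 382 and 413 in KO2. KO1 overlapped with WT, and KO2 and the myrAKT libraries (419, 386 and 374 CPM) lay above both. After MK2206 it was at 222, 224 and 224 CPM in KO1+MK and at 322, 314 and 325 CPM in KO2+MK, below the untreated libraries of each pool. The adjusted p passed but not the minimum fold for KO2 against WT (log2 fold change 0.43, adjusted p = 5.99e-06), myrAKT against WT (0.38, adjusted p = 0.000117), KO2 against KO1 (0.45, adjusted p = 4.67e-08), MK2206 in KO1 (−0.42, SE 0.0430, adjusted p = 2.5e-06) and MK2206 in KO2 (−0.35, SE 0.0470, adjusted p = 3.97e-06). With upper-quartile factors TIMP3 in KO2 was called (0.59, adjusted p = 1.05e-07), but relative to the shifted median of all genes it was at 0.41. In KO1 against WT the difference was −0.01 (adjusted p = 0.844).

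**Figure D2:**
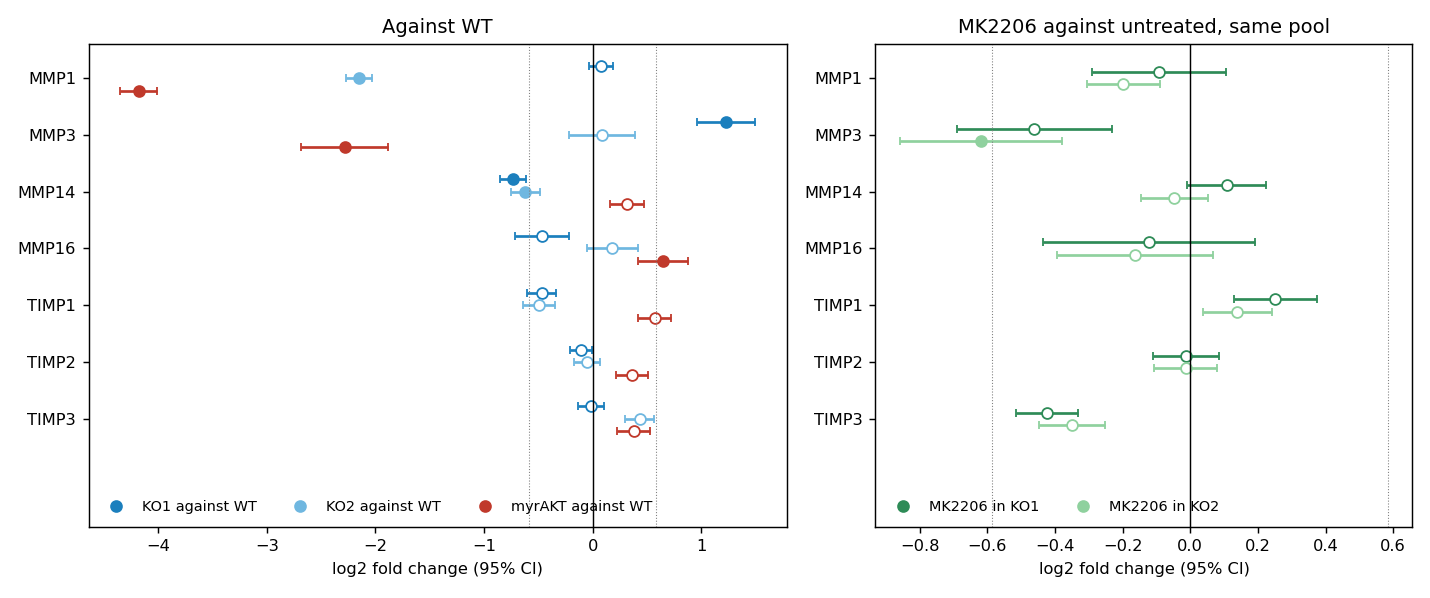
Log2 fold changes of the 7 tested members with 95% confidence intervals, against WT on the left and for MK2206 against the untreated cells of the same pool on the right. Filled points were called, open points were not, dotted lines mark 1.5-fold. MMP14 lies left of 0 in both pools and right of 0 in myrAKT, and the MK2206 panel holds 1 filled point, MMP3 in KO2.

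Over the tested members, 2 of 7 were called in KO1 against WT (MMP3 higher, MMP14 lower), beside 14.5% of all tested genes, and 2 of 7 in KO2 against WT (MMP1 and MMP14 lower), beside 17.6%. In myrAKT against WT 3 of 7 were called (MMP1 and MMP3 lower, MMP16 higher), beside 14.7%, and without a minimum fold 6 of 7 passed, beside 29.2%. In KO1 3 of 7 and in KO2 4 of 7 passed without a minimum fold, beside 40.8% and 41.9%. Groups that did not overlap were common, in 67.5% of all tested genes for KO1, 68.1% for KO2 and 56.2% for myrAKT against WT, and in 55.4% for MK2206 in KO1 and 54.0% in KO2. These comparisons share the WT libraries or the untreated pools. These counts describe 7 genes that passed the filter and not the family as a whole.

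The pools made with different sgRNA sets differed from each other in 3 of 7 members (MMP1 and MMP3 lower in KO2, MMP16 higher), beside 2.89% of all tested genes. MMP14 and TIMP1 differed little between the pools, by 0.11 (95% confidence interval 0.03 to 0.20) and −0.03 (−0.12 to 0.07). MMP1 and MMP3 start 45.5 kb apart on chromosome 11, while MMP14 lies on chromosome 14.

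With MK2206 in both pools as 1 comparison, 0 of 7 members were called by edgeR, beside 6.25% of all tested genes, 2 had an unadjusted p under 0.05 (TIMP1 and TIMP3), beside 8401 of 15587 genes, and DESeq2 also called 0. That fit had no term for the pool, so the difference between KO1 and KO2 added to its error. MMP3 had an SE of 0.326 there, beside 0.107 in KO1 alone and 0.115 in KO2 alone. In KO1 alone 0 of 7 were called, beside 5.01%, with 3 at an unadjusted p under 0.05, beside 8195 of 15587 genes, and 0 by DESeq2. In KO2 alone 1 of 7 was called (MMP3), beside 7.26%, and DESeq2 called 0. The difference of the MK2206 effect between the pools was tested as an interaction, and edgeR called 0 members, beside 0.0% of all tested genes, with 0 members at an unadjusted p under 0.05 and 0 by DESeq2. Over all genes 1103 had an unadjusted p under 0.05 in that test, and DESeq2 called 5. Of the 7 members MMP14 had the smallest p (−0.16, 95% confidence interval −0.31 to 0.0030, adjusted p = 0.718).

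The knockout pools and myrAKT were also compared directly, and 4 of 7 members were called, beside 16.7% of all tested genes. MMP14 was 1.99-fold lower in the knockout libraries (log2 fold change −0.99, SE 0.0508, adjusted p = 1.67e-08) and TIMP1 was 2.07-fold lower (−1.05, SE 0.0469, adjusted p = 5.66e-09). MMP1 was higher in the knockout libraries (3.54, SE 0.641, adjusted p = 0.000395), as was MMP3 (3.05, SE 0.390, adjusted p = 2.43e-05). Both pools were 1 group in this fit, although MMP1 averaged 1722 CPM in KO1 and 368 CPM in KO2, so 3.54 describes neither pool. The MMP1 call was lost when any 1 myrAKT library was left out, with adjusted p from 0.0036 to 0.00392. Its log2 fold change then stayed at 3.51 to 3.57. All myrAKT libraries lay below every untreated knockout library.

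The makeup of the family at the RNA level was described per kb of exon, which allows genes to be compared. MMP1 took 80.7 ± 0.931% (SD, n = 3) of the summed CPM per kb of the 7 MMP members in WT, 87.4 ± 0.251% in KO1, 58.8 ± 0.495% in KO2 and 15.8 ± 0.314% in myrAKT. MMP14 took most of the rest, with 18.9% in WT, 11.6% in KO1, 39.6% in KO2 and 83.4% in myrAKT. The level of MMP1 per kb was 4.29 times that of MMP14 in WT, 7.51 times in KO1, 1.48 times in KO2 and 0.190 times in myrAKT. On this scale MMP14 was the higher of both in myrAKT alone among the 6 groups. The scale depends on the exon length used, here the exon bases of all transcripts (2738 for MMP1, 4623 for MMP14). In CPM, MMP14 was also above MMP1 in KO2 (419 against 368) and in KO2+MK (406 against 321). With MK2206 the ratio was 6.50 ± 0.639 in KO1+MK and 1.34 ± 0.0566 in KO2+MK. The MMP14 level per kb was 1.68 ± 0.0610 times that of TIMP2 in WT, 1.09 ± 0.0270 times in KO1, 1.13 ± 0.0253 times in KO2 and 1.63 ± 0.0238 times in myrAKT.

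**Figure D3:**
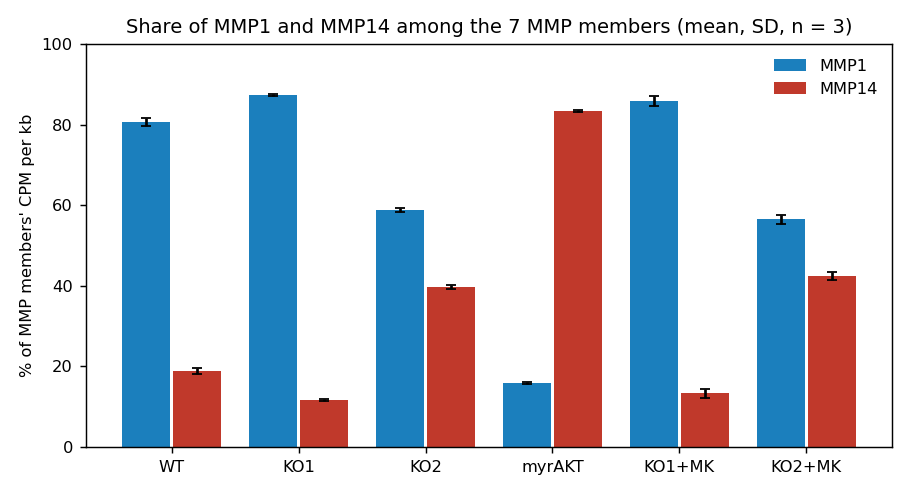
Share of MMP1 and of MMP14 in the summed CPM per kb of exon of the 7 MMP members, in percent, as mean and SD of 3 libraries per group on an axis from 0 to 100. MMP1 holds 80.7% in WT and 15.8% in myrAKT, where MMP14 holds 83.4%.

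MMP1, MMP3 and MMP13 lie in a cluster of MMP genes on chromosome 11. Within 500000 bases of the MMP1 start, MMP7, MMP8, MMP12, MMP20 and MMP27 had at most 2 counts in any library. MMP10, which encodes stromelysin-2 and starts 17.5 kb from MMP1, had 4 to 95 counts and was called lower in KO2 against WT (log2 fold change −1.43, adjusted p = 4.53e-06) and in myrAKT (−3.63, adjusted p = 7.68e-11), with −0.38 in KO1 (adjusted p = 0.0610). WTAPP1, a pseudogene read on the opposite strand, shares 223 of the 2738 exon bases of MMP1 and 32 of the 1854 exon bases of MMP3. It had 51, 38 and 50 counts in WT, 15, 15 and 13 in KO2, and 1, 1 and 2 in myrAKT. Whether counting used strand is not given in the sources used here, so reads in the shared bases cannot be told apart, and neither is the treatment of reads that match several of these related genes. SLC12A5-AS1, on the opposite strand, shares 430 of the 2336 exon bases of MMP9 and had 2 to 15 counts.

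Most other tested genes around MMP1 and MMP3 had values below 0 in KO2 and myrAKT, a view added after the values of the members were seen. Of the 23 tested genes that start within 5 Mb of MMP1, MMP genes and WTAPP1 left out, 22 were below 0 in myrAKT against WT, with a median log2 fold change of −1.02 and quartiles of −1.47 and −0.57. In KO2 against WT 20 of 23 were below 0 (median −0.41), in KO2 against KO1 21 of 23 (median −0.40), and in KO1 against WT 15 of 23 (median −0.06). MMP1 was lower than 22 of these 23 genes in myrAKT and in KO2 against WT, and lower than all 23 in KO2 against KO1. MMP3 in KO1, at 1.23, was above all 24 genes within 5 Mb of it, and in KO2, at 0.09, above 23 of them (median −0.37). The shift was seen over the whole chromosome but was uneven. The median of 862 tested genes of chromosome 11 was −0.57 in myrAKT (90.6% of them below 0) and −0.24 in KO2 (71.9% below 0), the lowest of the 23 chromosomes with at least 100 tested genes in both, beside medians of −0.02 and 0.02 over all genes. In KO1 it was −0.05. From 17 Mb before the MMP1 start to the end of the chromosome, the median of 226 genes was −0.44 in KO2 and −0.81 in myrAKT, and over the other 636 genes it was −0.16 and −0.51. In KO2 against KO1 the medians were −0.40 and −0.14. The part of this shift in the MMP1 and MMP3 differences was not tested.

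**Figure D4:**
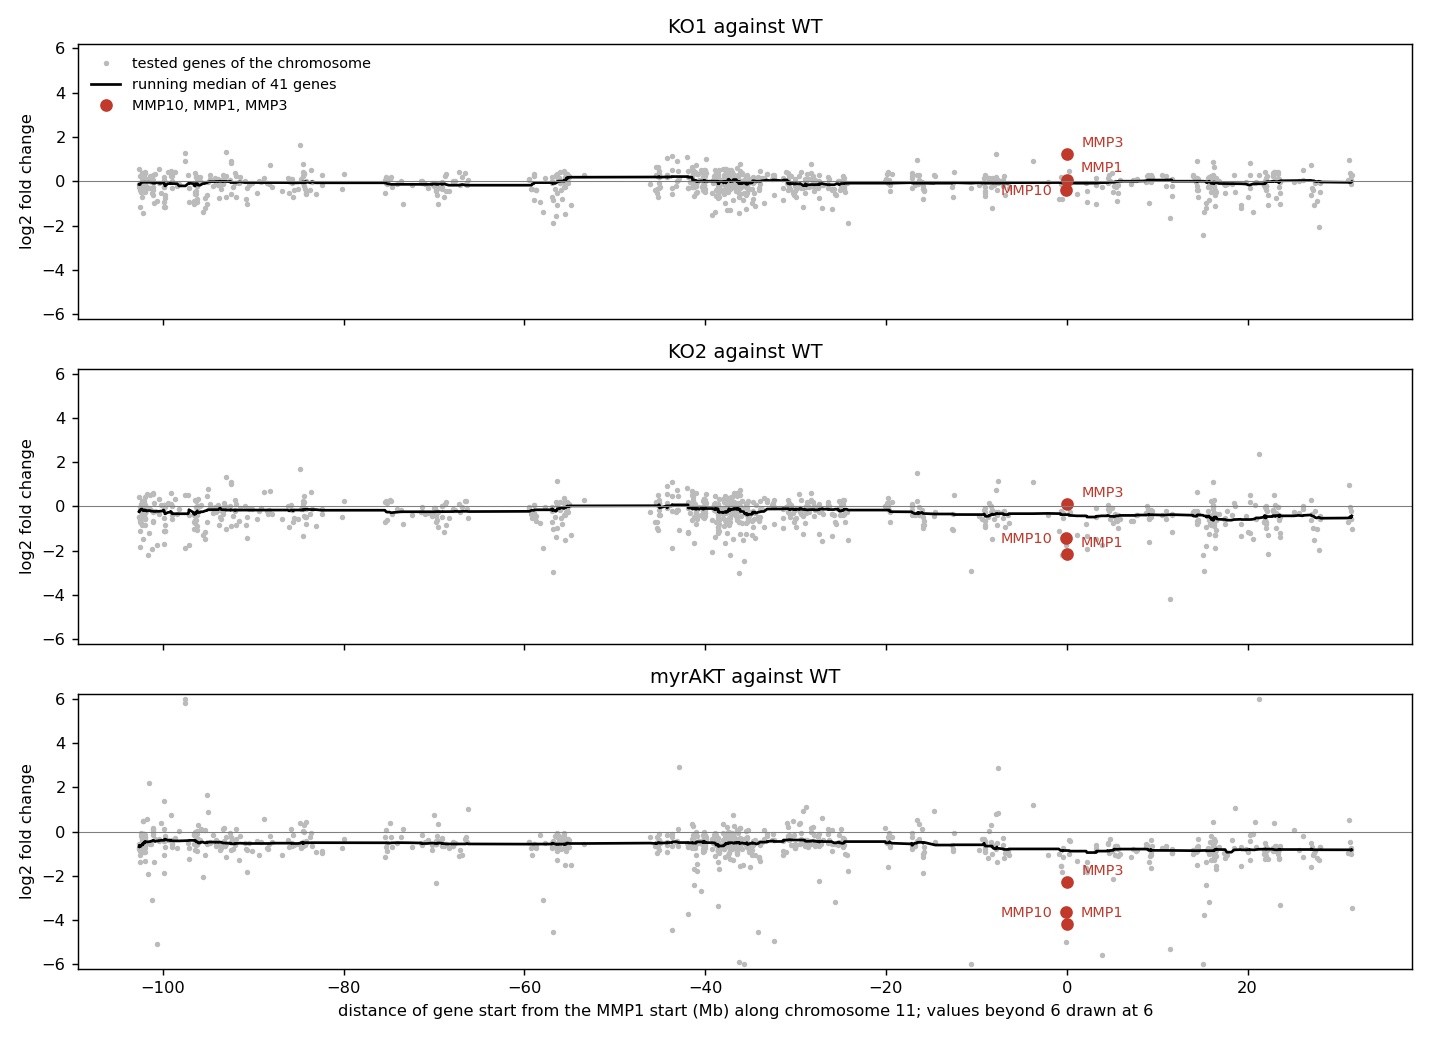
Log2 fold change of each tested gene on chromosome 11 against its distance in Mb from the MMP1 start, with the running median of 41 genes (line) and MMP10, MMP1 and MMP3 (red), values beyond 6 drawn at 6. The line runs near 0 in KO1 and below 0 along the whole chromosome in myrAKT, with MMP1 at −4.18 below it.

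The same view of the other members differed by gene. All 21 tested genes within 5 Mb of MMP16 were above 0 in myrAKT against WT, with a median of 0.44 and quartiles of 0.34 and 0.67, and the MMP16 value of 0.65 lay between these quartiles. In KO2 against KO1, 19 of these 21 genes were above 0 (median 0.19), and MMP16 was above all 21. The 90 genes within 5 Mb of MMP14 had medians of −0.0086 in KO1, −0.05 in KO2 and −0.28 in myrAKT, where MMP14 (0.32) was above 87 of them. For TIMP1 the medians of its 69 neighbours were between 0.0015 and 0.03 in the 3 comparisons with WT, for TIMP2 those of 183 neighbours between 0.0096 and 0.10, and for TIMP3 those of 90 neighbours between −0.05 and 0.05. The part of these neighbourhoods in the members' values was not tested.

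**Figure D5:**
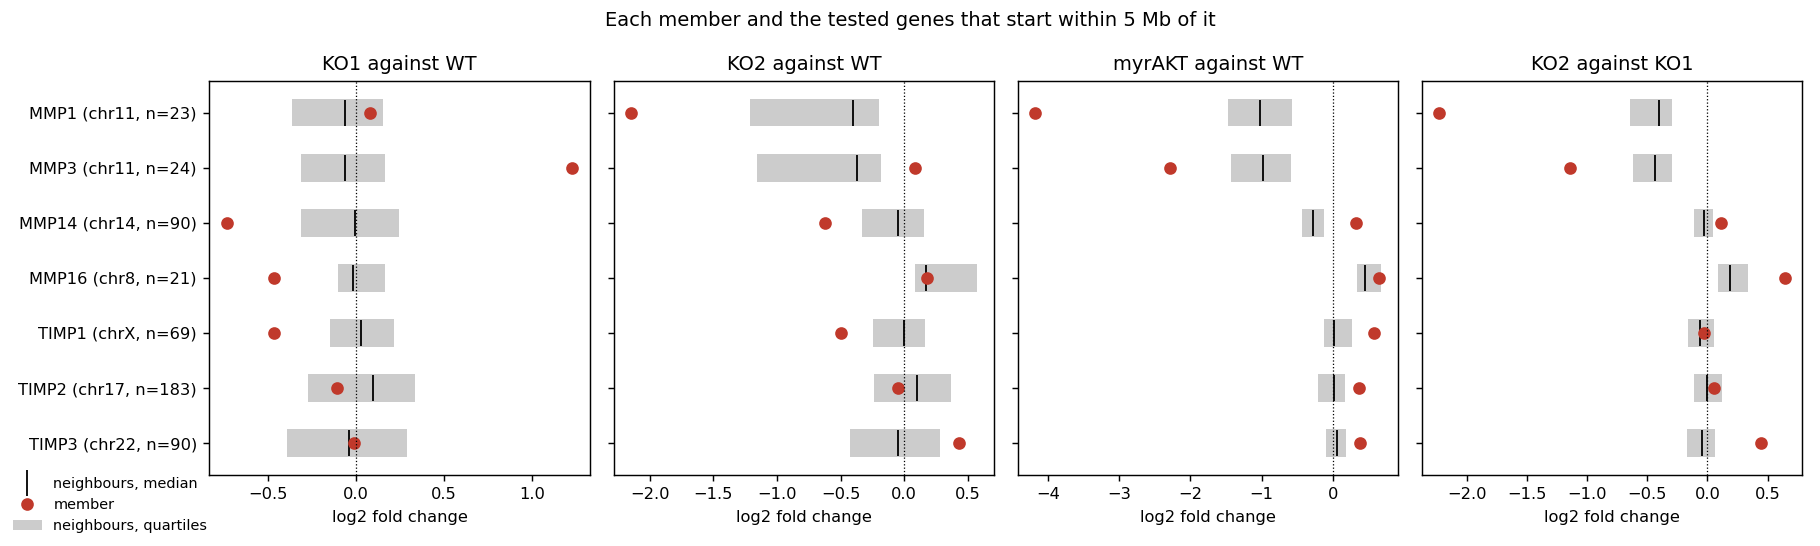
Log2 fold change of each tested member (red) beside the quartiles (grey bar) and median (black line) of the tested genes that start within 5 Mb of it, in 4 comparisons with separate axes. MMP1 lies below its neighbours in KO2 and myrAKT, and MMP16 in myrAKT lies within the quartiles of its neighbours.

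Members with a like pattern over the 6 groups were described by the Pearson correlation of group means of log2 CPM, across points that share libraries and depth. The highest values among member pairs were 0.943 for MMP14 and TIMP1, 0.920 for TIMP1 and TIMP2, 0.896 for MMP1 and MMP3 and 0.887 for MMP14 and TIMP2. Outside the members, the genes most like MMP1 were SLC12A7 (0.981), FERMT3 (0.973) and SERPINB9 (0.941), of 92 genes with a mean of at least 10 CPM and a range of at least 0.5 times that of MMP1. SLC12A7, a potassium-chloride cotransporter, was at 31.6 CPM in WT, 21.3 in KO1, 7.17 in KO2 and 3.28 in myrAKT. The genes most like TIMP1, the inhibitor with the widest range, were ANKH, RAB31 and SATB1 (0.997, 0.996 and 0.990, of 4541 genes), and ANKH was at 96.1 CPM in WT, 71.7 in KO1, 68.1 in KO2 and 132 in myrAKT.

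Of the 17 other genes of the family (further MMPs and TIMP4), 5 passed the filter. With both pools together against WT 4 of these 5 were lower and 0 higher, and the largest were MMP11 (stromelysin-3, log2 fold change −1.63, adjusted p = 1.61e-06), MMP19 (−1.15, adjusted p = 6.97e-05) and MMP15 (MT2-MMP, −1.01, adjusted p = 6.49e-05), beside 8.33% of all tested genes called lower. In myrAKT 3 of 5 were lower, MMP10, MMP19 (−1.20) and MMP11 (−0.68, adjusted p = 4.18e-05), beside 9.75%. MMP19 averaged 2.05 CPM in WT and under 1 CPM in each other group, so it passed the filter mainly through the group where it is high, and its part in these counts is no support for a lower family. Under MK2206 edgeR called 0 of the 5, whose values ran from −0.53 to 0.49, with 3 at an unadjusted p under 0.05, beside 6.25% of all tested genes called and 8401 of 15587 at that p.

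Activators and partners of MMPs were measured in 15 of 16 genes. In the knockout pools 4 were lower, beside 8.33% of all tested genes, and 0 higher, with ITGB3, an integrin subunit, at −1.49 (adjusted p = 0.000201), PLAT, the tissue plasminogen activator, at −1.31 (adjusted p = 5.81e-05) and ST14, the membrane protease matriptase, at −1.28 (adjusted p = 4.77e-05). In myrAKT 5 were lower, beside 9.75%, and 0 higher, with PLAT at −1.57, ST14 at −0.97 and ITGB3 at −0.91. With both pools in 1 comparison MK2206 raised PLAUR, the urokinase receptor, by 0.69 (adjusted p = 4.96e-08), beside 3.86% of all tested genes called higher, and no other gene of the list was called. In KO1 alone PCSK5, a proprotein convertase, was also called higher (0.59, adjusted p = 0.0005).

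Other inhibitors and clearance genes were measured in 7 of 10 genes. LRP1, an endocytic receptor that clears proteases, was at −1.28 in the knockout pools (adjusted p = 1.14e-06) and at 0.96 in myrAKT (adjusted p = 8.6e-09). RECK, a membrane-anchored MMP inhibitor, was at −0.65 in the pools (adjusted p = 2.58e-05), and SERPINB2 at −1.87 in myrAKT (adjusted p = 2.11e-05). SERPINB2 was low, with a mean of 0.950 CPM in WT. Against WT it was called higher in KO1 (0.81, adjusted p = 0.000903) and lower in KO2 (−1.34, adjusted p = 0.000485).

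Of 31 ADAM and ADAMTS proteases, 19 were tested. In the knockout pools 5 were lower, beside 8.33% of all tested genes, and 0 higher, among them ADAMTS9 (−2.04, adjusted p = 5.09e-07), ADAMTS7 (−1.14, adjusted p = 3.96e-07) and ADAMTS15 (−0.95, adjusted p = 5.63e-07). ADAM8 and ADAMTS2 were not called in the pools together (−1.77 and −1.82, adjusted p = 0.00419 and 0.00205) but were lower in KO1 (−1.10 and −1.18) and in KO2 (−3.07 and −3.01) taken separately. The separate pools also held calls in the other direction, ADAMTS1 in KO1 (0.79, adjusted p = 8.89e-11) and ADAMTS17 in KO2 (0.65, adjusted p = 9.35e-05). In myrAKT 6 were lower, beside 9.75%, and 0 higher, among them ADAM8 (−2.41, adjusted p = 6.83e-20), ADAMTS16 (−1.62, adjusted p = 3.52e-15) and ADAMTS2, which had 49 to 95 counts per WT library and 1 count over the 3 myrAKT libraries. MK2206 raised ADAMTS9 by 0.91 (adjusted p = 0.000232), while ADAMTS16 was lower (−0.79, adjusted p = 6.94e-06).

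All 16 transcription factor genes on a list of AP-1 and ETS factors with RUNX1 and RUNX2 passed the filter. JUNB was lower in the knockout pools (−0.99, adjusted p = 7.71e-05) and ETS1 was lower in myrAKT (−0.83, adjusted p = 1.38e-10), each the only call of its comparison, beside 12.9% and 14.7% of all tested genes called in either direction. After MK2206 3 were higher and 2 lower, with FOS at 2.15 (adjusted p = 2.48e-07), JUNB at 1.52 (adjusted p = 5.16e-07) and FOSB at 1.16 (adjusted p = 2.01e-05) among the higher and JUN (−0.60) and RUNX2 (−0.91) as the lower ones, beside 6.25% of all tested genes called in either direction. Of the members, MMP3 in KO2 was the 1 call under MK2206 in either pool.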

How the data were processed

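RNA-seq libraries were made with a ribosomal RNA depletion kit (KAPA RNA HyperPrep with RiboErase). The authors deposited raw read counts per Ensembl gene for 18 libraries, made with Trim Galore, HISAT2 on hg38 and featureCounts, with FastQC and MultiQC named as well. Versions, annotation and strand setting are not given in the sources used here.

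Counts were tested as deposited with the quasi-likelihood test of edgeR 4.0.16 (limma 3.58.1, R 4.3.3), with TMM factors over all 18 libraries, on the 15587 genes that reached 1 CPM in 3 or more libraries, and Benjamini-Hochberg adjusted. A call needed an adjusted p not above 0.001 and a 1.5-fold difference or more. The scripts were tested on simulated data. DESeq2 1.42.0, other scalings, filters, thresholds and fits, and leaving out each library were the alternatives. Library totals of 23419198 to 39319910 put the floor of 3 counts at 0.0763 to 0.128 CPM. Symbols and positions came from GENCODE release 44 (hg38), which placed 56948 rows and named 41445. Promoters came from RefSeq (GRCh38.p14). Tables used pandas 2.3.3, numpy 2.4.6 and scipy 1.17.1 under Python 3.11.15, and plots matplotlib 3.10.9.

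Of the other gene lists, the 3 called genes with the largest absolute change were named for the knockout pools, myrAKT and MK2206. One such result is not reported here. The genes most like a member were the 3 with the highest correlation of group means. The members and lists were chosen with earlier results of these data known, and the 5 Mb windows after the values were seen.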

Additional observations from a re-analysis of the deposited data

Results flagged for a closer look

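The effects of the knockout pools against WT differed between KO1 and KO2 for 3 members, tested directly as KO2 against KO1 with the edgeR quasi-likelihood test. The difference was −2.23 on the log2 scale for MMP1, where all 3 KO2 libraries lay below all 3 KO1 libraries. It was −1.14 for MMP3, again without overlap, and 0.65 for MMP16, where the KO2 libraries were the higher ones. The pools differ in their sgRNA set and are separate selections, so the sgRNA set and the pool cannot be told apart.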

How the results depend on the processing

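Of 17 called gene results, 169 of 176 values under other settings and 111 of 120 values with 1 library left out kept the call and its direction. The number of members called moved by more than 1.5 times in these cases. In the knockout pools against WT it was 2 without a minimum fold, 0 with upper-quartile factors, 3 with all 18 libraries in 1 fit and 3 with the pools as separate groups, in place of 1. In KO2 against WT it was 4 without a minimum fold and 1 to 3 with 1 library left out, in place of 2, and in myrAKT 6 without a minimum fold in place of 3. Smaller moves were 3 in place of 2 in KO1 and 4 in place of 3 in KO2 against KO1 without a minimum fold, and 2 to 3 in the latter with 1 library left out. In myrAKT they were 4 with DESeq2, DESeq2 size factors, upper-quartile factors and library totals (TIMP1 gained), and 2 to 4 with 1 library left out. In the pools against myrAKT they were 5 in place of 4 with DESeq2, no filter, all 18 libraries, separate pools, an adjusted p of 0.05 and no minimum fold, 3 with the replicate block, and 3 to 5 with 1 library left out. In KO2 with upper-quartile factors the count stayed at 2, with MMP14 lost and TIMP3 gained. For MK2206 in KO1 it was 1 without a minimum fold in place of 0. For MK2206 in KO2 it was 2 without a minimum fold, 0 with library totals, 0 with all 18 libraries, 0 with DESeq2 and 0 to 1 with 1 library left out, in place of 1. In the treated pools against WT it was 0 with upper-quartile factors, 2 with all 18 libraries and 2 with separate pools, in place of 1.

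Upper-quartile factors moved the median log2 fold change of all tested genes to 0.16 in the knockout pools, 0.135 in KO1, 0.18 in KO2, 0.126 in the treated pools and 0.142 in the pools against myrAKT. MMP14 was then at −0.53 in the pools, −0.46 in KO2 and −0.52 in the treated pools, each under the minimum fold, or at −0.69, −0.64 and −0.65 relative to the shifted median. With these factors 8 small differences that had not been called changed sign: MMP16 0.042 and TIMP2 0.066 in the pools, TIMP2 0.020 and TIMP3 0.11 in KO1, TIMP2 0.11 in KO2, TIMP1 0.0071 in KO2 against KO1, TIMP2 0.021 in the interaction and TIMP2 0.037 in the treated pools. TIMP2 under MK2206 also changed sign, with DESeq2 size factors (0.0013 in both pools, 0.017 in KO2, 0.032 in the interaction), library totals (0.037, 0.049 in KO1 and 0.025 in KO2) and DESeq2 (0.012, 0.016 in KO1, 0.022 in KO2 and 0.0033 in the interaction), as did TIMP1 in KO2 against KO1 with library totals (0.0013). The cause was not tested.

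With 1 library left out, signs changed within −0.093 to 0.031 for TIMP3 in KO1, −0.11 to 0.27 for MMP3 in KO2, −0.38 to 0.10 for MMP1 and −0.027 to 0.0096 for TIMP2 under MK2206 in both pools, −0.17 to 0.048 for MMP1 and −0.040 to 0.031 for TIMP2 in KO1, −0.042 to 0.0044 for TIMP2 in KO2, −0.076 to 0.015 for TIMP1 in KO2 against KO1, and −0.14 to 0.091 for MMP16 and −0.045 to 0.026 for TIMP2 in the interaction.

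The labels do not say whether replicate numbers pair the libraries. In 0 of 15 pairs of groups did all same-numbered libraries correlate above 0.1 (−0.519 to 0.297). With 3 libraries per group this cannot exclude a shared batch. With a replicate block MMP1 in the knockout pools against myrAKT was 3.54 with an adjusted p of 0.00194, and no other member's call changed under it. Levels near the floor of 3 counts, as for MMP2, limit what could be seen.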
